A study of Mus musculus with 21 samples.

Results

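Leca4 is an allele of Pax6 that changes the DNA-binding paired domain of the protein, and its effect was read in E14 mouse embryos, in the rostral part of the cerebral cortex. The comparison took 7 of the 21 arrays of the series, chosen by their labels: 3 arrays of Pax6 Leca4 mutants and 4 arrays of wild-type littermates of Leca4 mutants, all of the 129 S6 strain. Each array held the amplified total RNA of one sample, and the labels call the arrays of a group biological replicates but give neither the zygosity of the mutants nor the litters. For comparison the text draws on 4 mutants and 3 littermates of the Leca2 line, another Pax6 allele on 129 S6, and on 4 mutants and 3 littermates of the Small-eye (Sey) line, on a B6D2F1 background. Within a line, mutants and controls differ, as far as the labels say, in the Pax6 allele alone.

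Pax6 is a transcription factor of radial glia, the stem cells that line the ventricle of the developing cortex and give rise to its glutamatergic neurons. It grips DNA with a homeodomain and with a paired domain, which is itself built of a PAI and a RED subdomain. In the cortex Pax6 is known for driving neurogenesis, for setting the number of divisions of progenitors and for giving rostral and lateral cortex its identity. The labels place the study on these subdomains but not the position of the mutation. As background knowledge that these data do not bear on, Leca4 affects the PAI and Leca2 the RED subdomain, while Sey truncates the protein.

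Values are log2 RMA expression values, so that a difference of 1 is a 2-fold change. The words rise, fall and change are kept for genes whose difference had an adjusted p under 0.05 in limma. The tissue carried the markers of dorsal cortex: the mean level of the 11 marker genes tested was between 11.28 and 11.59 in the mutants and between 11.31 and 11.53 in the controls. The only one of the 11 that changed was Pax6. The transcription factors Emx1, Eomes and Tbr1 and the neuronal gene Neurod6 had log2 changes of -0.06, -0.12, 0.03 and 0.01, and the arrays of the groups overlapped for each. Pax6 was 12.02, 11.86 and 12.20 in the mutants and 11.52, 11.68, 11.41 and 11.55 in the controls, a rise of 0.49 ± 0.09 (SE; adjusted p = 0.00276). Its other probe sets gave smaller changes, and with the mean of its probe sets the change was 0.22 and Pax6 was not called (adjusted p = 0.0893).

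By Xist and Y-linked genes the mutants were 2 males and 1 female, and the controls 3 males and 1 female. The excess of the 3' over the 5' control probe sets, which reflects RNA quality, was higher in the mutants by 0.07 for Gapdh and 0.06 for Actb (exact permutation p = 0.0571 and 0.0857, two-sided; the smallest possible is 0.0286). Its part in the results was not tested. Array medians lay between 6.25 and 6.26.

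In Leca4 mutants most genes kept a level near that of their littermates, and more of the genes that changed rose than fell. Of 13850 genes tested, 779 changed (5.62%). There were 469 that rose (3.39%) and 310 that fell (2.24%). The change was over 2-fold for 49 risen and 31 fallen genes, and over 4-fold for 12 and 4. The median change over all genes was 0.01, and the median size among called genes was 0.44. For 740 of the 779 every mutant array lay beyond every control array. Such separation was found in 15.3% of all genes tested.

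**Figure D1:**
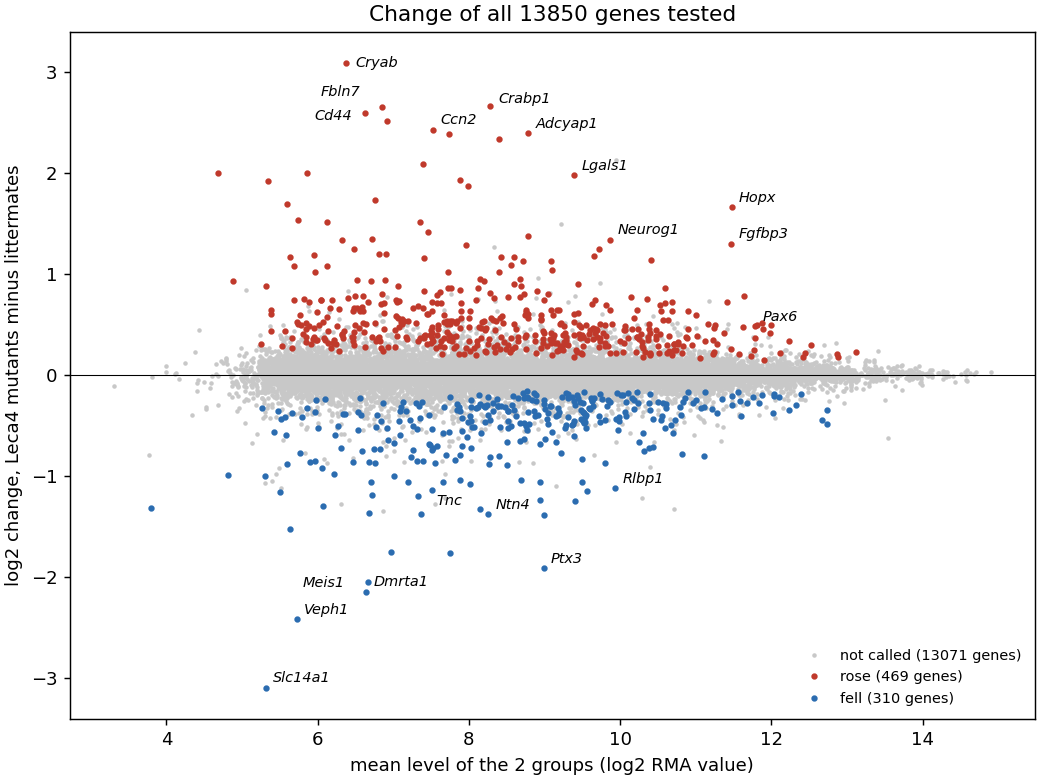
Log2 change of each gene (Leca4 mutants, n = 3, minus littermate controls, n = 4) against its mean level in log2 RMA units, with genes that rose in red, genes that fell in blue and the other genes in grey. Cryab (3.09) and Slc14a1 (-3.09) mark the extremes among called genes, and Hopx and Fgfbp3 rose at high levels.

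The number of calls depended on single arrays. Of the 779 genes, 342 stayed called in the same direction with each of the 7 arrays left out in turn (232 that rose and 110 that fell). Without mutant replicate 1 the count of calls was 512, and fewer genes fell without mutant replicate 1 (182), control replicate 3 (202) or control replicate 4 (180). The genes that changed by over 2-fold were changed least in mutant replicate 2 in 53 of 80 cases, against 16 in mutant replicate 1 and 11 in mutant replicate 3. In a fit of the 7 arrays alone 400 genes were called, and against a minimum change of 1.4-fold 55 were (41 rose and 14 fell), so that many of the smaller changes given here have no call under that setting. Each gene named here as changed belongs to the 342 unless it is said not to have held. Where a list is counted, the number of its genes among the 342 is given as held, beside 342 of 13850 over all genes. The percent of a list called stands beside 5.62% of all genes.

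Promoter sequence was searched for short words that paired domains and homeodomains bind, since the allele alters DNA binding. In RefSeq windows of GRCm38.p6 from 250 bases before to 50 after a gene start, TTCACGC, part of the site that the PAI subdomain reads, was present on either strand in 1.05% of 475 windows of risen genes, 1.99% of 352 of fallen genes and 1.69% of 14225 of all tested genes. GCGTGA, which on the other strand overlaps TTCACGC, was present in 7.16%, 10.2% and 9.92%. TAATTA, a homeodomain word, was present in 3.16%, 3.98% and 2.72%. None of these shares stands far from that of all promoters. The promoters of Neurog1 and Tnc, a gene that rose and one that fell, are shown as examples that hold a word, with the word in capitals. They lie on the minus strand at chr13:56252131-56252430 and chr4:64046887-64047186, and in Tnc the word GCGTGA is read on the other strand.
Neurog1 promoter: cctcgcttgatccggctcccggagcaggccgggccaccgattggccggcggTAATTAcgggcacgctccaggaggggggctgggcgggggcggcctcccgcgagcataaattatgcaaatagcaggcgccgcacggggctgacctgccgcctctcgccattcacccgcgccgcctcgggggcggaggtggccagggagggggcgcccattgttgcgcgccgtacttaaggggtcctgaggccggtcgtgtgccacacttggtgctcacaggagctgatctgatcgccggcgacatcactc
Tnc promoter: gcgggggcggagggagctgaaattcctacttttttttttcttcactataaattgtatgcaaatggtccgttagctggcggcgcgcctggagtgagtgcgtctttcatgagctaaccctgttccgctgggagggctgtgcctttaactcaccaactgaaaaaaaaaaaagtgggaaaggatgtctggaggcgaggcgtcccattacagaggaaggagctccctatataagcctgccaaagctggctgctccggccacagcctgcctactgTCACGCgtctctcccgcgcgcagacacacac

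The largest gains included genes of the extracellular matrix and its cell-surface partners. Of 27 tested genes of the list of matrix and matricellular genes, 8 rose and 1 fell (33.3% called), of which 6 and 1 held. The median change of the list was 0.03, so that the rises came from part of its members. The mean level of the list was between 8.22 and 8.26 in the mutants and between 7.86 and 7.96 in the controls.

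Ccn2, a matricellular protein that is a classic target of the Hippo pathway, was 8.72, 8.54 and 8.95 in the mutants and 6.30, 6.26, 6.21 and 6.46 in the controls. All mutant arrays were over 2 units above all controls, and the rise was 2.43 ± 0.12 (SE; adjusted p = 1.52e-10). Cd44, the hyaluronan receptor, was 7.87, 7.88 and 8.02 against 5.17, 5.36, 5.38 and 5.39. None of the control arrays exceeded the filter level, the 40th percentile of an array, so that the rise is given as at least 5.04-fold. Tnfaip6, which makes a protein that cross-links hyaluronan, was 6.40, 6.98 and 7.21 against 4.83, 4.71, 5.09 and 4.80, with all controls below the filter level (at least 2.42-fold higher; adjusted p = 7.74e-07). The receptor for hyaluronan and this binding protein were at or below the filter level in all 4 controls and above it in all 3 mutants. A gene enters the test with 3 arrays above that level, so such genes can pass through the mutant arrays alone. The pattern across the level is therefore no separate support for these rises, nor for those of Cryab, Eya2 and Aqp4 given below.

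Single genes of basement membranes and fibrils rose and others fell. Npnt, nephronectin, an integrin ligand of basement membranes, was 8.45, 8.33 and 8.52 against 6.03, 6.45, 6.45 and 6.45. It rose by 2.09 ± 0.09 (SE; adjusted p = 3.87e-11), although of its 3 other probe sets 2 gave changes of -0.08 and 0.22 and only the remaining one a rise, of 1.75. Fbln7, a fibulin, was 8.08, 7.16 and 9.30 against 5.32, 5.94, 5.45 and 5.38, a rise of 2.66 ± 0.32 (SE) in which the mutant arrays spread over more than 2 units. Col6a3, a chain of collagen VI, rose by 2.39 ± 0.18 (SE; adjusted p = 9.99e-08), and Nid2, a nidogen that links laminin and collagen IV networks, by 1.16 ± 0.14 (SE). Sparc, a collagen-binding glycoprotein made by radial glia, rose from 10.17 ± 0.08 (SD, n = 4) to 11.03 ± 0.10 (SD, n = 3). Fbln1 rose by 0.62 (SE 0.08), and was not called against all 7 controls of 129 S6 together (0.33, adjusted p = 0.234). Fn1, fibronectin, rose by 0.75 and was not called with the mean of its probe sets (0.35, adjusted p = 0.169).

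Of the collagens, laminins and integrins, 34 were tested, 5 rose and 3 fell (23.5% called), the median change was 0.06, and only Col6a3 and Nid2 held. The 3 that fell without holding were Lama1, a laminin chain of basement membranes (-0.60 ± 0.15, SE), and the cartilage fibril collagens Col2a1 (-0.80 ± 0.18, SE) and Col9a1 (-0.59 ± 0.15, SE). Tnc, tenascin C, a matrix protein of radial glia and neural stem cell niches, went the other way. It was 7.26, 7.90 and 7.28 in the mutants and 8.73, 8.50, 8.96 and 9.03 in the controls, a fall of -1.33 ± 0.23 (SE; adjusted p = 0.00157). Ptx3, a secreted pattern-recognition protein that binds hyaluronan-rich matrix through Tnfaip6, was 8.21, 8.15 and 7.75 against 10.11, 9.70, 10.04 and 9.95. Its fall, by -1.91 ± 0.18 (SE; adjusted p = 1.42e-06), stood against the rise of Tnfaip6 and Cd44 in the same embryos.

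**Figure D2:**
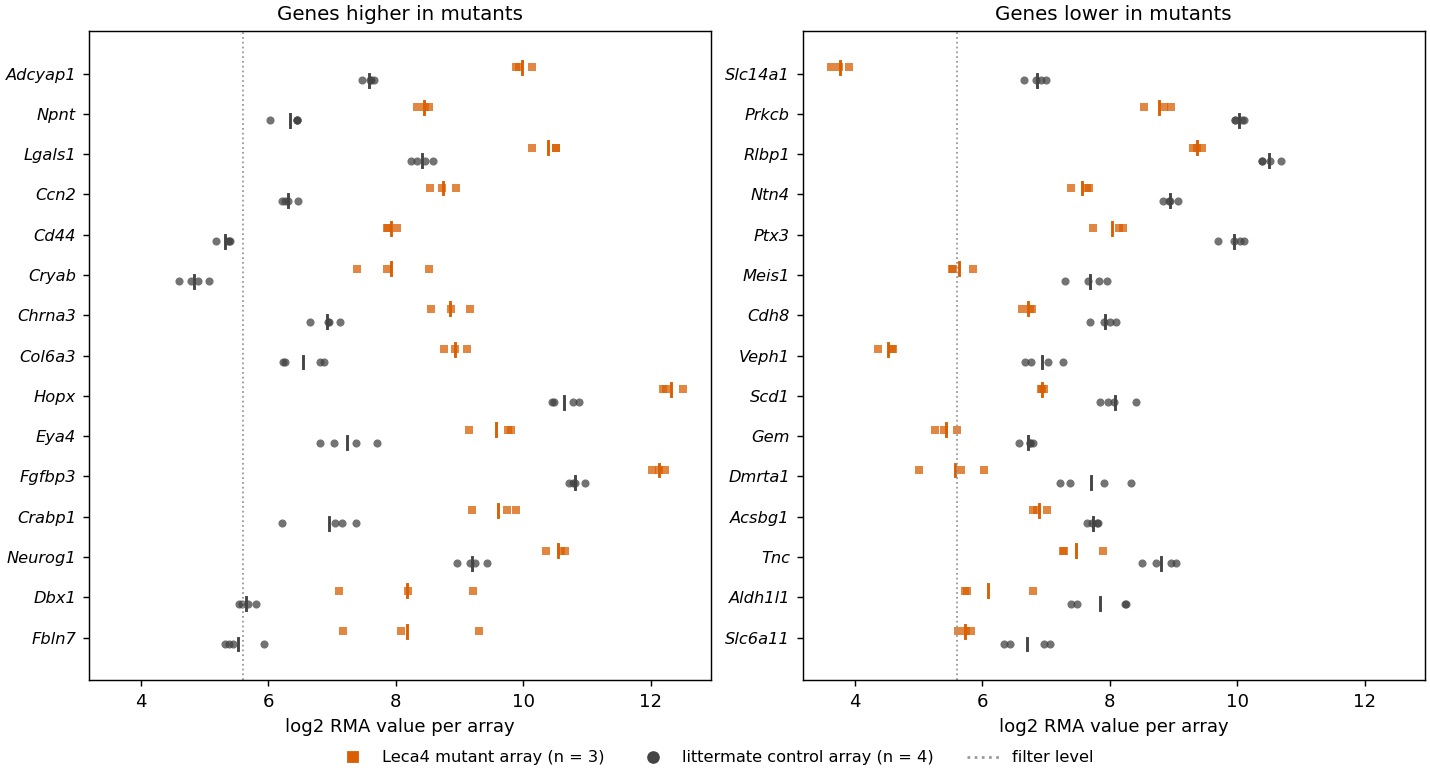
Level of 15 genes that rose (left) and 15 that fell (right) in each array, in log2 RMA units, with Leca4 mutants as orange squares (n = 3), littermate controls as grey circles (n = 4), vertical bars at the group means and a dotted line at the filter level of 5.60. The genes were chosen among those whose groups do not overlap, and the mutant arrays spread most for Dbx1 and Fbln7.

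A neuropeptide gene and a transmitter receptor gene were among the clearest gains. Adcyap1 encodes the neuropeptide PACAP, which acts on neural progenitors and neurons through receptors coupled to cAMP. It was 9.89, 9.92 and 10.14 in the mutants and 7.47, 7.60, 7.61 and 7.66 in the controls, and it had the smallest p of all genes tested (rise of 2.40 ± 0.09, SE; adjusted p = 2.08e-12). Its second probe set rose by 3.00. Of 23 neuropeptide and granin genes, 2 rose and none fell (8.7% called), and 1, Adcyap1, held. Chrna3, a nicotinic acetylcholine receptor subunit, was 8.86, 8.54 and 9.16 against 6.66, 7.12, 6.96 and 6.93 (rise of 1.94 ± 0.15, SE; adjusted p = 9.99e-08). Chrna3 was the only riser of 34 transmitter receptor genes, and Ntsr1, a neurotensin receptor, fell and held (-0.70 ± 0.15, SE; -0.52 and adjusted p = 0.0535 against all 7 controls of 129 S6). The share of that list called, 5.88%, was near the 5.62% of all genes. Of 30 voltage-gated channel genes 10% were called, and Kcnq5 (0.87 ± 0.14, SE) and the calcium channel subunit Cacna2d1 (0.51 ± 0.09, SE) rose and held.

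Cryab, the small heat shock protein alpha B-crystallin, had the highest fitted change of the called genes. It was 7.86, 7.38 and 8.52 in the mutants and 4.89, 5.06, 4.79 and 4.59 in the controls, all of which were below the filter level, so that it was at least 5.03-fold higher (adjusted p = 4.88e-09). Both of its probe sets rose. Of 25 crystallins and heat shock genes tested, 3 rose and none fell (12% called, against 5.62% of all genes), and 1, Cryab, held. Another crystallin rose by 1.02 and a heat shock gene by 0.72, and neither held. A dimmer probe set of that heat shock gene rose by 2.11 (adjusted p = 0.0100 in limma with every probe set tested on its own). Lgals1, galectin 1, a carbohydrate-binding protein that promotes proliferation of adult neural stem cells, was 10.51, 10.13 and 10.51 against 8.34, 8.46, 8.24 and 8.58, a rise of 1.98 ± 0.09 (SE; adjusted p = 2.73e-11) that both of its probe sets gave.

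Genes that handle retinoids, the derivatives of vitamin A, changed in both directions. Of 18 tested, 3 rose and 1 fell (22.2% called), and all 4 held. Crabp1, a cytoplasmic retinoic acid binding protein, was 9.88, 9.20 and 9.74 in the mutants and 7.05, 7.37, 6.21 and 7.16 in the controls (rise of 2.66 ± 0.26, SE; adjusted p = 1.84e-06). Its relative Crabp2, which carries retinoic acid to its nuclear receptor, rose by 1.17 ± 0.24 (SE), with mutant replicate 2 (8.63) close to control replicate 2 (8.37). Dhrs3, which turns retinaldehyde back into retinol, rose by 1.08 ± 0.07 (SE; adjusted p = 1.92e-08). Rlbp1, a retinaldehyde-binding protein of radial glia, was 9.31, 9.45 and 9.38 against 10.39, 10.52, 10.68 and 10.38, a fall of -1.12 ± 0.09 (SE; adjusted p = 9.99e-08). Crabp2 is also a gene of the meninges, which are described with other cell types.

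A few transcription factors rose strongly. Neurog1, a proneural bHLH factor of cortical progenitors, was 10.59, 10.36 and 10.66 in the mutants and 9.24, 9.16, 8.96 and 9.42 in the controls (rise of 1.34 ± 0.15, SE; adjusted p = 1.56e-05). A second, dim probe set of Neurog1 gave 0.07. Neurog2, its close relative, gave -0.04 ± 0.12 (SE), with overlapping arrays. Of 21 proneural and neurogenic factors, 2 rose (9.52% called), none fell and both held, the other being the zinc finger gene St18 (0.78 ± 0.13, SE). Dbx1, a homeobox gene of the antihem at the lateral edge of the cortex, was 9.21, 7.12 and 8.20 against 5.55, 5.81, 5.58 and 5.69. The mutant arrays differed from one another by over 2 units, and the lowest of them was still over 1 unit above the controls (rise of 2.52 ± 0.29, SE; adjusted p = 1.71e-05). Of 12 antihem and lateral pallium genes, 2 rose and 1 fell (25% called), and Neurog1 and Dbx1 held.

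Hopx, an atypical homeodomain protein of radial glia, was 12.24, 12.19 and 12.50 against 10.45, 10.78, 10.48 and 10.87. At this high level the rise of 1.66 ± 0.14 (SE; adjusted p = 1.8e-07) was given by both of its probe sets. Of 29 radial glia genes, 2 rose (Hopx and Pax6) and 3 fell (17.2% called), and Hopx, Pax6 and Tnc held. The filament genes Vim and Nes and the factor Sox2 gave -0.03, 0.13 and 0.04 and were not called. Eya4, a co-activator and phosphatase of the eyes absent family, was 9.76, 9.15 and 9.80 against 6.81, 7.70, 7.04 and 7.37 (rise of 2.34 ± 0.19, SE). Eya2, of the same family, was at least 1.55-fold higher, with all controls below the filter level. Mitf, a bHLH factor of pigment cells that is known as a partner of Pax6 in the eye, rose by 1.34 ± 0.23 (SE), and was not called in a fit of the 7 arrays alone (adjusted p = 0.0758).

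In the signalling lists the share of genes called was 13% for Notch, 13.6% for the cortical hem and Wnt, 10.5% for BMP, TGF-beta and Shh and 5% for Fgf, against 5.62% of all genes. Jag1, a Notch ligand, was 9.12, 9.10 and 9.20 against 8.22, 8.27, 8.21 and 8.29, and it rose by 0.89 ± 0.07 (SE; adjusted p = 6.62e-08). Of 23 Notch pathway genes, 3 rose and none fell, and Jag1 alone held. Notch1 gave 0.12. Fgfbp3, which binds and releases fibroblast growth factors, rose by 1.30 ± 0.10 (SE; adjusted p = 9.99e-08) from 10.82 ± 0.11 (SD, n = 4) to 12.12 ± 0.10 (SD, n = 3). It was the only called gene of 20 of Fgf signalling and rostral patterning. Id3, an inhibitor of bHLH factors that BMPs induce, rose by 1.13 ± 0.18 (SE), and of 38 genes of BMP, TGF-beta and Shh signalling 4 rose and none fell, of which 2 held. Wnt5a rose by 0.93 ± 0.19 (SE), one of 22 genes of the cortical hem and of Wnt signalling, of which 2 others fell.

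The losses were led by a membrane transporter. Slc14a1, a urea transporter, was 3.63, 3.90 and 3.76 in the mutants and 6.93, 7.01, 6.65 and 6.85 in the controls. Every mutant array was below the filter level, so that it was at least 2.40-fold lower (log2 change -3.09 ± 0.18, SE; adjusted p = 1.71e-09). Veph1, a PH domain protein named for its expression in the ventricular zone, was 4.59, 4.61 and 4.36 against 7.03, 6.67, 6.77 and 7.27 and thus at least 2.54-fold lower. Of 31 solute carriers and other membrane transporters, 2 rose and 4 fell (19.4% called), of which 1 and 2 held. The GABA transporter Slc6a11 fell by -0.98 ± 0.20 (SE), while the water channel Aqp4 was at least 1.56-fold higher, with controls below the filter level.

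Metabolic genes of radial glia moved both ways. Of 31 tested, 4 rose and 5 fell (29% called), of which 1 and 3 held. Aldh1l1, a folate enzyme and astrocyte marker, was 5.74, 6.79 and 5.75 against 7.39, 7.49, 8.23 and 8.26, with mutant replicate 2 nearest the controls. Its fall of -1.75 ± 0.34 (SE; adjusted p = 0.00379) missed the threshold against all 7 controls of 129 S6 (-1.27, adjusted p = 0.0510). Scd1, the enzyme that makes monounsaturated fatty acids, was 6.93, 6.97 and 6.92 against 8.07, 7.84, 7.98 and 8.41 (-1.14 ± 0.13, SE; adjusted p = 1.76e-05). Its second probe set gave -0.14. Acsbg1, an acyl-CoA synthetase of glia, fell by -0.85 ± 0.14 (SE). Pla2g7, a phospholipase that degrades platelet-activating factor, was 8.80, 8.61 and 9.37 against 7.46, 6.54, 7.33 and 6.89, a rise of 1.87 ± 0.21 (SE; adjusted p = 1.4e-05).

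The losses included transcription factors. Dmrta1, a DMRT factor of the lateral and rostral pallium that is a known Pax6-dependent gene, was 5.66, 5.01 and 6.04 against 7.22, 8.33, 7.38 and 7.91, and it fell by -2.14 ± 0.28 (SE; adjusted p = 6.54e-05). Meis1, a TALE homeodomain factor that pairs with Pbx and Hox proteins, was 5.53, 5.54 and 5.86 against 7.30, 7.66, 7.96 and 7.83, a fall of -2.05 ± 0.20 (SE; adjusted p = 1.62e-06). In both, the mutant arrays came near the filter level while all controls stayed more than 1 unit above the highest mutant. Of 17 genes of the Eya, Dach, Meis, Pbx and sine oculis families, 2 rose and 3 fell (29.4% called), of which 2 and 1 held. Among 21 genes of cortical area patterning, 2 rose and 5 fell (33.3% called), of which 1 and 3 held. The 3 falls that held were those of Dmrta1 and of Cdh8 and Epha7, which are counted again below with adhesion and guidance genes. The mean level of that list was between 9.39 and 9.56 in the mutants and between 9.58 and 9.72 in the controls.

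Several adhesion and guidance genes fell. Of 45 tested, 4 rose and 8 fell (26.7% called, against 5.62% of all genes), of which 3 and 5 held. Ntn4, a netrin that binds laminin, was 7.67, 7.65 and 7.39 against 8.84, 8.93, 9.08 and 8.94 (-1.38 ± 0.11, SE; adjusted p = 2.29e-07). Cdh8, a cadherin of rostral cortex, was 6.79, 6.76 and 6.63 against 8.09, 7.91, 7.999 and 7.69 (-1.20 ± 0.12, SE; adjusted p = 4.44e-06), and all 3 of its probe sets fell. The ephrin receptor Epha7 fell by -0.54 ± 0.09 (SE). Its potential ligand Efna3 rose by 0.29 ± 0.05 (SE), and the repellent Slit2 by 0.78 ± 0.15 (SE), which was not called against all 7 controls of 129 S6 (0.57, adjusted p = 0.0524). Of 11 protocadherins, 2 rose (18.2% called), both of which held, and none fell. Within the cell, Prkcb, a protein kinase C isoform, was 8.85, 8.96 and 8.54 against 10.11, 10.07, 9.96 and 9.97 (-1.25 ± 0.08, SE; adjusted p = 1.55e-08). Gem, a small GTPase that restrains calcium channels, fell by -1.29 ± 0.16 (SE).

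**Figure D3:**
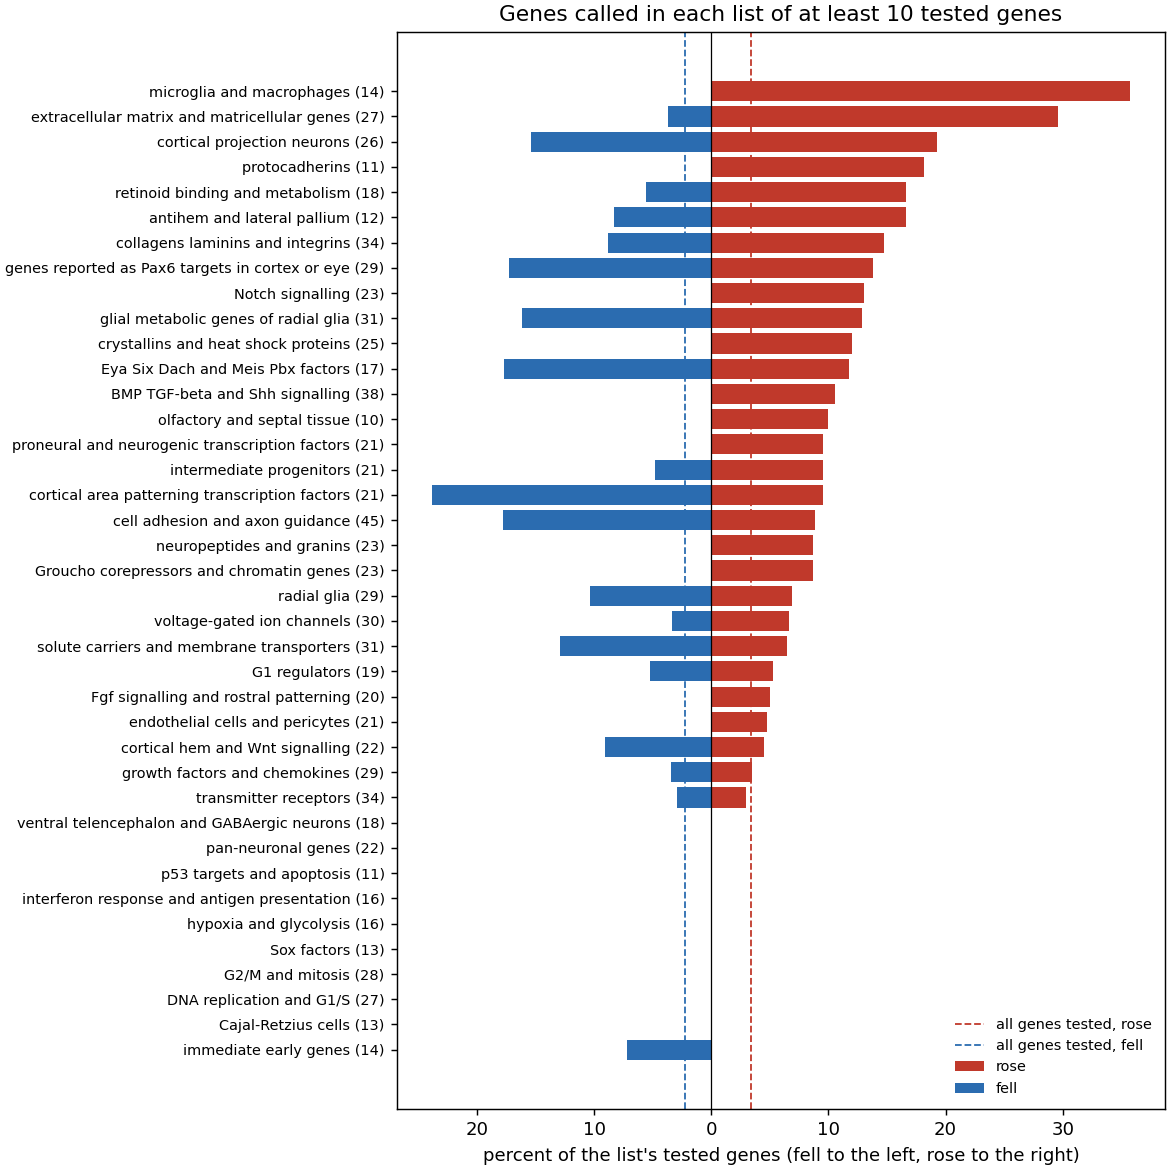
Percent of the tested genes of each list that rose (red, to the right) and fell (blue, to the left) in Leca4 mutants, for lists of at least 10 tested genes, with the number tested in parentheses and dashed lines at the percent over all genes (3.39% rose, 2.24% fell). The microglia and matrix lists have the largest shares that rose and the area patterning list the largest share that fell, but of the 5 microglia genes that rose 1 held.

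Projection neuron genes also changed in both directions. Of 26 tested, 5 rose and 4 fell (34.6% called), of which 4 and 1 held. Foxp1, a forkhead factor of projection neurons, was 10.87, 11.13 and 10.62 against 10.19, 10.16, 10.19 and 10.16 (0.70 ± 0.10, SE; adjusted p = 0.000249). Its relative Foxp2, a factor of deep-layer neurons, fell by -0.60 ± 0.13 (SE). Zfpm2, a GATA cofactor of corticothalamic neurons, rose by 0.63 ± 0.09 (SE), and Lmo4, a LIM-only factor of upper layers, by 0.50 ± 0.08 (SE). Bcl11b and Fezf2, which specify subcerebral projection neurons, gave 0.14 and 0.15 and were not called. Hdac9, a histone deacetylase expressed in neurons, rose by 0.95 ± 0.08 (SE; adjusted p = 5.34e-07), one of 2 risen genes among 23 corepressor and chromatin genes (8.7% called).

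The lists of DNA replication, mitosis and general neuronal genes held no called gene in limma, where the share over all genes was 5.62%. With probe sets averaged per gene 1 gene rose in each of the first 2 lists and 1 fell in the last. Of 27 genes of DNA replication and G1/S none was called, with 6 at an unadjusted p under 0.05, and the changes lay between -0.15 and 0.34. Of 28 genes of mitosis none was called, with 1 at an unadjusted p under 0.05, and the changes lay between -0.09 and 0.25. Pcna and Mki67 gave -0.05 ± 0.06 and 0.12 ± 0.14 (SE). Within the 19 regulators of G1, Cdkn1c, the inhibitor p57 that holds cells out of the cycle, rose by 0.78 ± 0.11 (SE; adjusted p = 0.000152), from 11.25 ± 0.17 (SD, n = 4) to 12.03 ± 0.08 (SD, n = 3). The proliferation factor Mycn, of the same list, fell by -0.16 ± 0.05 (SE; adjusted p = 0.0429) and did not hold. Ccnd1 and Ccnd2 gave -0.21 and 0.13. Of 22 pan-neuronal genes none was called, with 4 at an unadjusted p under 0.05, and Tubb3 and Dcx gave -0.03 and 0.04. Of 18 genes of ventral telencephalon and GABAergic neurons none was called, again with 4 at an unadjusted p under 0.05. One of them, Sox6, a factor of interneurons and of dorsal progenitors, had 0.46 ± 0.14 (SE; adjusted p = 0.0675) by its brightest probe set. With every probe set tested on its own, its 3 others rose by 0.39, 0.40 and 0.42 (adjusted p = 0.0376, 0.0131 and 0.0202), and with their mean Sox6 was called as well (0.42, adjusted p = 0.00452). With array weights 1 gene of this list rose and 1 fell. Dlx2, which specifies such neurons, was 8.68, 9.04 and 8.44 against 8.75, 8.77, 9.91 and 9.27, and its change of -0.45 ± 0.35 (SE) was not called.

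Among the lists of other cells that the dissected tissue can hold, that of microglia had the largest share called (35.7%, against 5.62% of all genes). Its changes were small, the highest being 0.52. Of 14 microglia and macrophage genes, each above the filter level in at least 1 control array, 5 rose and none fell. The mean level of the list was between 7.42 and 7.47 in the mutants and between 7.11 and 7.25 in the controls. Only C1qa, a complement gene, held (0.52 ± 0.10, SE; adjusted p = 0.00492), and without mutant replicate 1 it was the only one called. In bulk tissue more cells of a type and more RNA per cell cannot be told apart. Of 7 tested genes of meninges and mesenchyme, also each above that level in at least 1 control array, Prrx1 (0.95 ± 0.17, SE) and Crabp2 rose (28.6% called). The mean level of this list was between 7.04 and 7.16 against 6.77 and 7.02. The mean level of the matrix list was also higher in the mutants, and any part of these cells in the rises of matrix genes was not tested. The collagen genes of the meninges and mesenchyme list were not called, and the median change of that list was 0.00. Of 9 genes of oligodendrocyte precursors and astrocytes, Aqp4 rose (1.08) and Aldh1l1 fell (-1.75), and both held (22.2% called). Of 21 endothelial and pericyte genes 1 rose (4.76% called) and none held. No gene of choroid plexus, erythroid cells or diencephalon was called in limma (6, 6 and 8 tested, with 0, 1 and 1 at an unadjusted p under 0.05).

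Most of the leading Leca4 changes differed from the change in Leca2, the other paired-domain allele. The difference between the Leca4 and the Leca2 change, each against its own littermates, was called for 329 genes (2.38% of those tested), 196 of them higher in Leca4. Among the 779 Leca4 genes 259 differed (33.2%), and among the 80 genes changed over 2-fold 63 differed. The Leca4 change is itself part of this difference. Genes chosen for a large Leca4 change therefore pass more readily, and these shares are no separate support. Of the 80, 4 were also called in Leca2 in the same direction, where 66 genes were called in all (0.477% of those tested). The controls of the lines are separate arrays, and for genes that do not differ by this test the changes are not shown to be equal.

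Several of the leading gains were not called in Leca2. The differences there were -0.14 for Ccn2, 0.07 for Cd44, 0.18 for Adcyap1, 0.19 for Cryab, -0.08 for Col6a3 and -0.35 for Eya4, and for each the Leca4 change differed from them (adjusted p between 4.02e-09 for Adcyap1 and 1.13e-05 for Col6a3). In Sey, on its other background, the same genes gave -0.17, 0.04, 0.25, 0.25, 0.21 and 0.75. Of these, only the rise of Eya4 was called in Sey (adjusted p = 0.00826 in limma). Other gains were less apart from Leca2, which gave 0.60 for Id3, 0.55 for Wnt5a, 0.51 for Tnfaip6 and 0.32 for Fgfbp3, none of them called. The Leca4 changes of Id3 and Wnt5a did not pass the test of a difference from Leca2 (adjusted p = 0.367 and 0.581). Of the 49 genes that rose over 2-fold in Leca4, 43 had a Leca2 change within 0.5 of 0. The share of all tested genes in that range was not counted, and only 0.477% of them were called in Leca2. Crabp1 was high in Leca4 and in Sey (2.66 and 2.47) and not in Leca2 (-0.07). The difference between Leca4 and Sey was not tested.

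Neurog1 moved in opposite directions. It rose by 1.34 in Leca4 and fell by -1.43 in Leca2 and by -2.67 in Sey, and the difference between Leca4 and Leca2 was 2.77 (adjusted p = 2.99e-07). Rlbp1 fell in all 3 mutants, least in Leca4, where it changed by -1.12 against -3.12 in Leca2 and -6.05 in Sey. The difference from Leca2 was 2.00 (adjusted p = 1.35e-08). Slc14a1 fell in all of them too, by -3.09, -1.95 and -2.30, and its difference from Leca2 of -1.14 was not called without mutant replicate 1 (-1.07, adjusted p = 0.0550).

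Among the losses, Meis1 fell in Leca4 (-2.05) and gave 0.10 in Leca2 and 0.44 in Sey, and neither of these was called. Dmrta1 fell in Leca4 and Sey (-2.14 and -3.66) and gave 0.55 in Leca2, a difference from Leca4 of -2.70 (adjusted p = 0.000556). Cdh8 had the same order, with -1.20, -1.56 and -0.14 in Leca4, Sey and Leca2. Tnc fell in Leca4 and Sey (-1.33 and -0.83) and gave 0.40 in Leca2. Ptx3 fell most in Leca4 (-1.91), with -0.81 in Sey and -0.21 in Leca2.

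**Figure D4:**
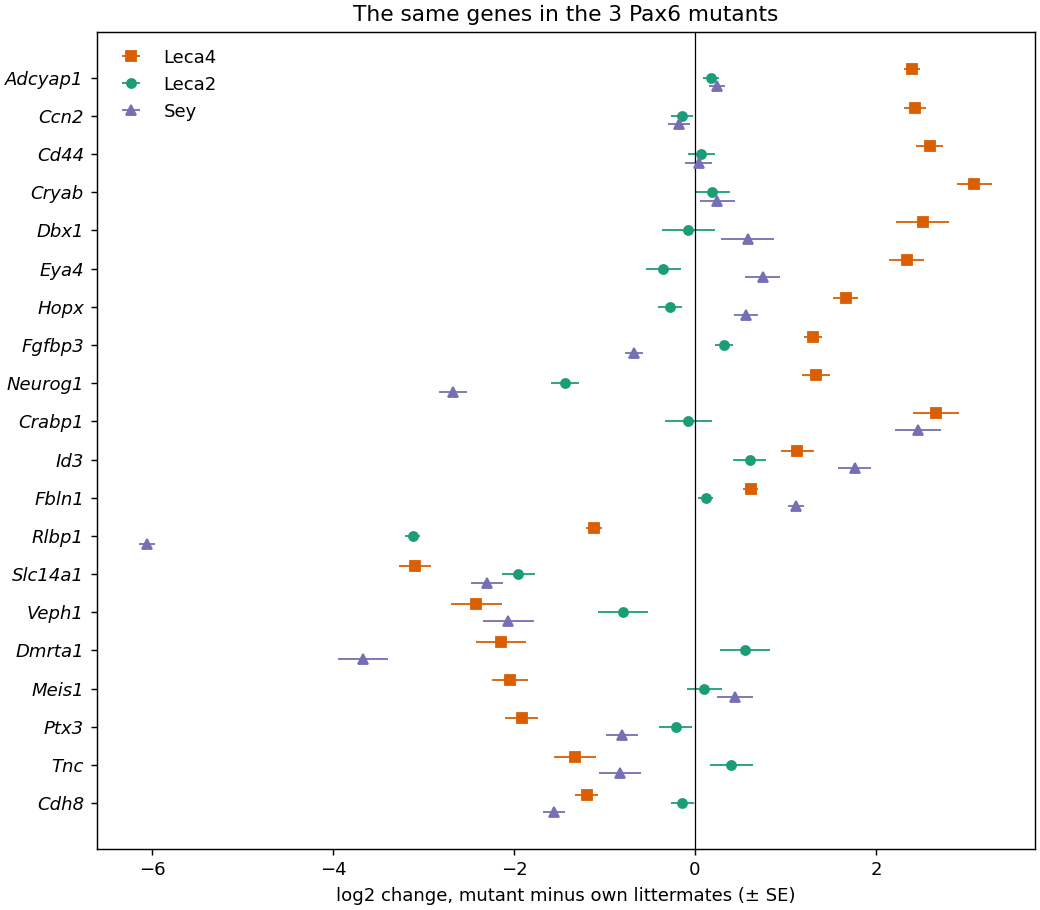
Log2 change (± SE) of 20 genes in Leca4 (orange squares, 3 mutants and 4 controls), Leca2 (green circles, 4 and 3) and Sey mutants (purple triangles, 4 and 3), each minus its own littermates. Adcyap1, Ccn2, Cd44 and Cryab lie above 2 in Leca4 and near 0 in Leca2 and Sey, Neurog1 lies on opposite sides of 0, and Rlbp1 is lower in Sey than in Leca2 and Leca4.

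Chromosome 2, which carries Pax6, held a larger share of called genes than the genome as a whole, a difference that was not tested. Of 200 tested genes nearest to Pax6, 100 on each side over 36.8 Mb, 26 changed (13%), against 5.51% of the 13649 genes outside. The closest 100 gave 16% and the closest 400 11.5%. Of all tested genes of chromosome 2, 9.12% changed, and 14 of the 80 genes changed over 2-fold (17.5%) lay there, where 8.07% of the tested genes lie. Position and the effect of the allele cannot be told apart for these genes in this design. Among the changed genes named above, Cd44 starts 2.86 Mb before Pax6 and Tnfaip6 53.6 Mb before it. Fbln7, Jag1, Eya2 and Ntsr1 start 23.2, 31.4, 59.9 and 74.8 Mb after it. Without the genes of chromosome 2, 639 genes were called (390 rose and 249 fell).

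Next to Pax6, Rcn1, which encodes a calcium-binding protein of the endoplasmic reticulum, starts 0.283 Mb away, and it was 11.06, 10.73 and 11.16 against 9.73, 10.12, 9.69 and 9.85 (1.14 ± 0.13, SE; adjusted p = 1.09e-05). Pax6os1, a transcript antisense to Pax6, rose by 0.75 ± 0.15 (SE), and was not called against all 7 controls of 129 S6 (0.54, adjusted p = 0.0633). Mpped2, on the other side of Pax6, rose by 0.50 ± 0.07 (SE). Further off, Ambra1, an autophagy regulator, rose by 0.90 ± 0.09 (SE), with 0.12 by its second probe set, and the uncharacterized Gm13889 fell by -1.15 ± 0.14 (SE). The changes of Rcn1, Mpped2, Ambra1 and Gm13889 differed from those in Leca2, where they were -0.01, 0.01, 0.05 and 0.31. The difference of Ambra1 was not called with the mean of its probe sets (0.41, adjusted p = 0.198), nor that of Mpped2 with a replicate block (0.51, adjusted p = 0.0741). Of the 26 genes 12 differed from Leca2, beside 259 of all 779 Leca4 genes (33.2%) and 2.38% of all genes tested. The 26 were chosen for their Leca4 change, which is part of that difference, so the count is no separate support. The same 200 genes held 7 called in Leca2 (3.5%, against 0.477% of all genes), 3 of them also called in Leca4, and 45 in Sey (22.5%, against 20.2% of all genes).

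**Figure D5:**
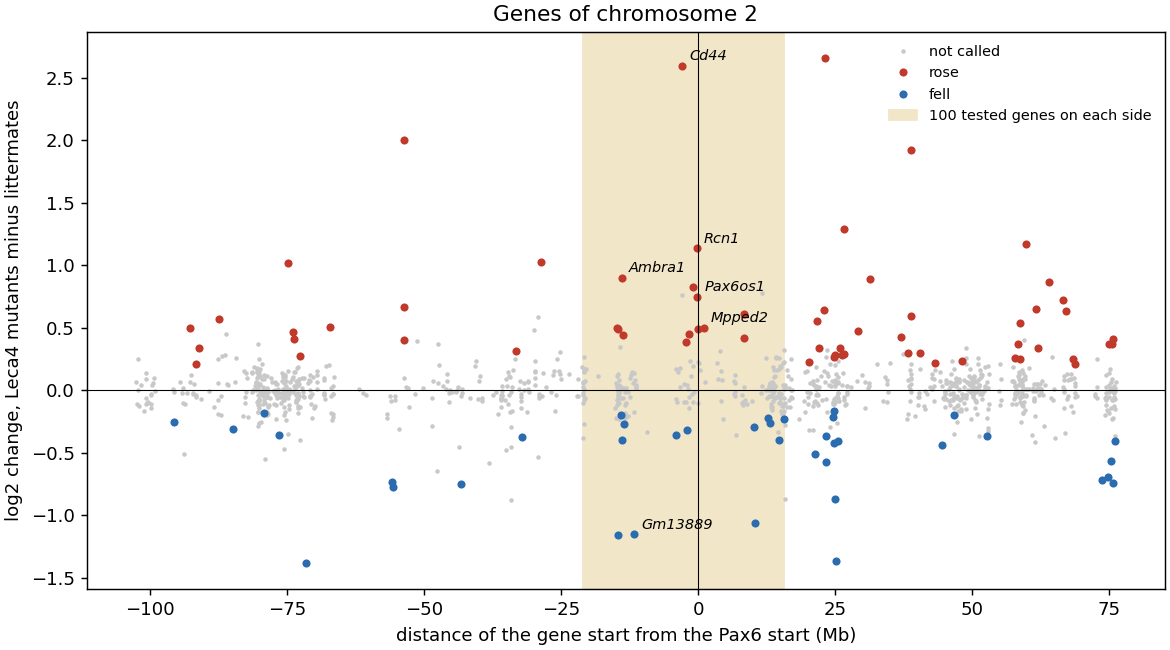
Log2 change of the tested genes of chromosome 2 in Leca4 mutants (n = 3) minus littermates (n = 4) against the distance of their start from that of Pax6 in Mb, with risen genes in red, fallen genes in blue and a shaded band over the 100 tested genes on each side. Called genes lie along the chromosome and include Cd44 and Rcn1 inside the band.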

How the data were processed

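The authors deposited log2 expression values per probe set for 21 arrays; RMA is named in the submitters' processing notes, and neither its version nor the way arrays were scaled is given in the sources used here. Per the labels' protocols, extraction used the RNeasy Micro Kit, and the total RNA was amplified and biotin-labelled. All columns matched a sample. Probe sets (45101) were named through the platform's annotation, with symbols and positions from RefSeq GRCm38.p6. Of 34945 probe sets with 1 gene, 34884 had an entry there, and 9160 named no gene and 932 several. Probe sets had to exceed the 40th percentile of the array on at least 3 arrays (29474 kept, 25140 of them with 1 gene), and a gene took its kept probe set of highest mean.

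Tests used limma 3.58.1 (lmFit, eBayes) in R 4.3.3, in 1 model of 6 groups over 21 arrays, whose residual degrees of freedom were 15 and prior ones 3.54, two-sided, with Benjamini-Hochberg adjustment per contrast. Errors are standard errors of the fit unless given as SD. Where all arrays of a group lay at or below the 40th percentile (5.58 to 5.60 in these arrays), the fold is given against that level as a lower bound. Each p-value reflects the spread among samples that the labels call biological replicates.

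Genes named were chosen by rule: Pax6, the 15 largest rises and falls with separated groups, up to 5 called members of each list, marker genes, and called genes near Pax6. Fewer are printed. Neurog2, Vim, Nes, Notch1, Bcl11b, Ccnd1, Ccnd2, Mki67, Tubb3, Dcx, Dlx2, Fn1, Slit2 and Lama1 were added after their values were seen. The 46 lists, from general knowledge (801 of 961 symbols tested), and the members were chosen with earlier results of these data known. Some genes stand in several lists. On simulated data for this comparison (13850 genes) 80.6% of 67 genes changed by 0.5 and 97% of 67 changed by 1 on the log2 scale were recovered, and 4.64% of calls were false. The simulated noise was independent between genes and arrays. These rates therefore leave out any shift that the genes of an array share, and do not measure the dependence on single arrays. Other settings were: only the arrays compared, a replicate block, other filters, means or single probe sets, quantile normalization, centring, array weights, robust variance with a trend, other thresholds, all 129 S6 controls, a term for sex and leaving out each array.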

Additional observations from a re-analysis of the deposited data

Results flagged for a closer look

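For 52 of the 88 genes tested that the text names, the Leca4 change differed from the Leca2 change in limma (38 higher and 14 lower, adjusted p up to 0.0431). Most of these genes were named for their Leca4 change, which is part of the difference, so a high share was to be had from the choice. Among matrix and cell-surface genes the difference on the log2 scale was 2.57 for Ccn2, 2.53 for Cd44, 2.35 for Fbln7, 2.47 for Col6a3, 1.90 for Npnt, 1.75 for Lgals1, 1.5 for Tnfaip6, 1.29 for Nid2, 0.89 for Sparc, 0.89 for Fn1 and 0.50 for Fbln1. Tnc, Ptx3 and Col9a1 were lower than in Leca2, by -1.73, -1.70 and -0.896. Of the stress, retinoid and peptide genes, Cryab differed by 2.90, Crabp1 by 2.74, Adcyap1 by 2.22, Rlbp1 by 2.00 and Dhrs3 by 0.97. Of the receptor and channel genes, Chrna3 differed by 1.96, Kcnq5 by 0.99 and Cacna2d1 by 0.69.

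Among transcription and chromatin factors the difference was 2.77 for Neurog1, 2.69 for Eya4, 2.59 for Dbx1, 1.94 for Hopx, 1.42 for Mitf, 1.07 for St18, 1.07 for Foxp1, 1.04 for Eya2, 0.61 for Zfpm2 and 0.61 for Hdac9. For Dmrta1 it was -2.70 and for Meis1 -2.15. Of the signalling, cell cycle and guidance genes, Fgfbp3 differed by 0.99, Jag1 by 0.93, Cdkn1c by 0.68, Efna3 by 0.39, Cdh8 by -1.06, Ntn4 by -0.99, Gem by -0.88 and Prkcb by -0.80. Of the transporters and glial metabolic genes, Pla2g7 differed by 1.94, Aqp4 by 1.20, Veph1 by -1.62, Slc14a1 by -1.14, Scd1 by -1.12 and Acsbg1 by -0.87. For Veph1 and Slc14a1 all Leca4 mutant arrays were below the filter level, so the sizes of their differences are uncertain. Near Pax6 the difference was 1.15 for Rcn1, 0.85 for Ambra1, 0.49 for Mpped2 and -1.46 for Gm13889. Single settings ended some of these differences, among them those of Gem, Veph1, Fbln1, Cdkn1c, Mitf, Acsbg1, Slc14a1 and Col9a1 when certain arrays were left out. With probe sets averaged per gene the differences of Fn1 (0.31, adjusted p = 0.495), Ambra1 (0.41, adjusted p = 0.198), Fbln1 (0.33, adjusted p = 0.0645) and Efna3 (0.30, adjusted p = 0.0797) were not called.

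In 5 genes 1 of the 4 control arrays stood apart from the other 3, with a gap to its neighbour that took most of the range of the group. The lowest control array of Npnt, at 6.03, took 0.981 of the range, that of Dcx, at 12.52, took 0.892, and that of Cd44, at 5.17, took 0.855. The highest control array of Hdac9, at 8.36, took 0.841, and that of Kcnq5, at 7.51, took 0.832. Chance gives such a gap in about 1 in 20 groups.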

How the results depend on the processing

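The counts of called genes moved with the model, the directions did not: no called change of a named gene and no called difference from Leca2 reversed under any setting run. In a fit of only the arrays compared 400 genes changed (251 rose and 149 fell), 15 of them near Pax6. With a replicate block, the number in the labels taken as a pairing, 450 changed (286 and 164) and 148 differed from Leca2. Near Pax6, 15 were called. The deviations of arrays with the same number correlated with r of 0.10, -0.44 and -0.19, against -0.23 to 0.46 for arrays with different numbers. So few values show no sign of a pairing by number and cannot exclude one. Array weights gave 499 differences from Leca2. An adjusted p under 0.10 gave 495 falls and 611 differences. Against a change of at least 1.4-fold 55 genes changed (41 and 14), 38 differed from Leca2, 26 were list genes and 4 lay near Pax6, and 0% of risen promoters held TTCACGC. With all 7 controls of 129 S6, 160 fell. With 1 array left out, between 512 and 749 genes changed, 329 to 463 rose and 180 to 294 fell. Differences from Leca2 then numbered 246 to 363, list genes 72 to 119, genes near Pax6 19 to 24, and TTCACGC was in 0.599% to 1.45% of risen promoters. The setting without genes of chromosome 2 was chosen after seeing the data. Only the log2 values were used, so another background correction was not run. The small number of arrays limits the precision, and levels near the filter level are bounds.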

Other observations

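Some genes differed by more than 2 units on the log2 scale between arrays of the same Leca4 group, 21 in the controls, 19 in the mutants and 31 in either, of which 3 were called. They include Xist and Y-linked genes, which divide the embryos by sex. Others did not follow genotype or sex. H2-D1, a class I histocompatibility gene of chromosome 17, was 10.83, 6.77, 10.76 and 7.17 in the controls and 10.99, 11.12 and 10.94 in the mutants, and H2-K1 had the same pattern, with 7.31 and 6.96 in control replicates 2 and 4 and at least 9.79 in the other 5 arrays. Pdxdc1 on chromosome 16 was 6.13 in control replicate 1 and 6.00 in mutant replicate 1 and at least 9.94 in the other 5. Galc, a lysosomal enzyme gene of chromosome 12, was between 7.93 and 8.44 in 3 arrays and between 4.67 and 5.49 in 4, and each group had arrays of either kind. These genes were read after their values were seen.

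Wnt8b, a gene of the cortical hem at the medial edge of the cortex, was 5.23, 3.90 and 7.89 in the mutants and 5.39, 7.13, 7.43 and 7.86 in the controls, and Rspo1, an enhancer of Wnt signalling expressed there, was 7.12, 5.83 and 8.42 against 5.50, 6.55, 6.79 and 7.24. Mutant replicate 2 was lowest of the mutants for both, and mutant replicate 3 highest. The mean level of the list of hem and Wnt genes ranged from 7.45 to 8.16 in the mutants and from 7.59 to 8.01 in the controls.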
